A study of Mus musculus with 4 samples.

Results

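Troponin and tropomyosin are the regulatory proteins of the thin filament of striated muscle. Tropomyosin lies along actin, and the troponin complex moves it when calcium binds, which opens the sites where myosin attaches. Fast and slow fibres build this machinery from different genes, and young regenerating fibres are known to use slow and cardiac forms before the adult pattern returns. The 9 genes described here were taken by symbol: the slow troponins Tnnt1, Tnni1 and Tnnc1, the fast troponins Tnnt3, Tnni2 and Tnnc2, and the tropomyosins Tpm1, Tpm2 and Tpm3. All 9 were found among the 32285 genes of the files, and all 9 had UMIs in every section and passed the filter on low counts.

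Nse-Bmp4 mice of the C57BL/6 strain, aged 6 to 8 weeks, gave the 4 frozen sections, each cut from tibial muscle. In these mice neuron-specific enolase regulatory sequence drives Bmp4 and injured muscle goes on to form ectopic bone. All 4 sections carried the transgene, so no section shows muscle without it. One section was uninjured (day 0), and 3 came from muscle taken 1, 3 or 7 days after injury (dpi) with cardiotoxin, a snake toxin that destroys muscle fibres. The labels describe a group as a mixture of 3 tibial muscles, and no source used here ties a muscle to a section. Each day was therefore 1 sample, the section, the animal and the day cannot be told apart, and no test between days was possible. All intervals below are 95% intervals that cover counting error only.

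A section was read as spots, small printed areas that each capture RNA from several cells or parts of fibres. The files held 2107, 2667, 3029 and 3032 spots at days 0, 1, 3 and 7, or 10835 in all. Totals ran from 16777832 UMIs (counted molecules) at 1 dpi to 56113066 at 3 dpi. The day 1 section was the shallow one, with a median of 6322 UMIs a spot against 12119.5 to 21029 in the others, and 513 of its spots were under 2000 UMIs. Of the spot barcodes, 1341 occurred in all 4 sections, since barcodes mark positions on the slide. The labelled tissue was checked with 7 genes of the contractile apparatus (Acta1, Ttn, Neb, Des, Actn2, Tcap and Ckm), which together gave 103442 CPM (UMIs per 1000000 UMIs of the section) at day 0 and 38081 to 60294 CPM after injury. Cell composition moved with the day: 6 macrophage genes summed to 195 CPM at day 0, 675 at 1 dpi, 3582 at 3 dpi and 890 at 7 dpi, and 3 cartilage genes reached 1091 CPM at 7 dpi from 0.501 at day 0. In bulk sums of this kind, fewer fibres and less RNA per fibre cannot be told apart, and the part of other cells in the levels below was not tested.

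Levels are given as CPM. In this 3′ assay a UMI stands for 1 captured transcript whatever its length, so slow and fast genes were compared as UMIs. The tags did not separate splice forms, so muscle and non-muscle transcripts of the tropomyosin genes were counted together.

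The 9 genes lie on 7 chromosomes in build GRCm38.p6 (mm10), and the 2 genes Tnni2 (chr7:142441816-142444410) and Tnnt3 (chr7:142498771-142516213) lie near each other on chromosome 7. Tnnt1 is elsewhere on that chromosome at chr7:4504569-4515975, Tnni1 is at chr1:135783033-135810989, Tnnc1 at chr14:31208312-31211729 and Tnnc2 at chr2:164777161-164779734. RefSeq promoter windows were given for 7 of the 9 genes and not for Tnnt3 or Tnni2. The 250 bases before the start of Tnnt1 and Tnnc1, slow genes whose levels took the same order over the days, and of Tnnc2, a fast partner, are shown. Capitals mark matches on either strand to CANNTG (the E-box, bound by myogenic basic helix-loop-helix factors), CATTCC (the MCAT element) and TATAAA. The windows are chr7:4515976-4516225 on the minus strand, chr14:31208062-31208311 on the plus strand and chr2:164779735-164779984 on the minus strand.
Tnnt1: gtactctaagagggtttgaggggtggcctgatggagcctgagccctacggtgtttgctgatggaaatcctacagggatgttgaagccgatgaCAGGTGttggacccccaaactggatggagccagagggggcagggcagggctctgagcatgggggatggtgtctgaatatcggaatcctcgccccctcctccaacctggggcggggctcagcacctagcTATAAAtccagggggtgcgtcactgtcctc
Tnnc1: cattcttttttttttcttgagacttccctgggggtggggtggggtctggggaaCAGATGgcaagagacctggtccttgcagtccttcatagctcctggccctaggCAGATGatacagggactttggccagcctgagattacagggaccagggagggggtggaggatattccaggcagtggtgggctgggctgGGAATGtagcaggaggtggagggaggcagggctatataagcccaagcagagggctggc
Tnnc2: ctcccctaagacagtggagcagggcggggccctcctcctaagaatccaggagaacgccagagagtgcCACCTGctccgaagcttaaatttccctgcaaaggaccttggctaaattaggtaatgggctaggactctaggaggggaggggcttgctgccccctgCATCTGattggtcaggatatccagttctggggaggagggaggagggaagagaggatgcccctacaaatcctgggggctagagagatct
The slow Tnnt1 window held 1 E-box and a TATAAA match whose first base lay 30 bases before the start. The slow Tnnc1 window held 2 E-boxes and 1 MCAT match on its opposite strand, 58 bases before the start. The fast Tnnc2 window held 2 E-boxes and neither of the other motifs. Matches of this kind are common: of all 32851 windows of that length, 66.2% held an E-box, 12.6% an MCAT match and 12.4% TATAAA. None of the 9 windows given for the 7 genes held a MEF2 or CArG match, which 0.508% and 1.47% of all windows did.

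In uninjured muscle the fast isoforms made up nearly all of the troponin RNA. Tnnt3, the fast form of the tropomyosin-binding subunit, gave 20377 CPM (20335 to 20419), Tnnc2, the fast calcium-binding subunit, 16845 CPM (16807 to 16884), and Tnni2, the fast inhibitory subunit, 14726 CPM (14690 to 14762). Each of these fast genes had UMIs in all 2107 spots. The slow forms were near the bottom of the range: Tnnt1 gave 72.4 CPM (69.9 to 74.96), Tnnc1, which heart muscle also uses, 69.9 CPM (67.4 to 72.4), and Tnni1 29.0 CPM (27.4 to 30.7). The intervals of Tnnt1 and Tnnc1 overlapped and that of Tnni1 lay below both. The slow genes together were 0.329% of troponin UMIs.

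The tropomyosins were as uneven. Tpm1, the α form that predominates in fast fibres, gave 19194 CPM at day 0, Tpm2, the β form, 5244 CPM, and Tpm3, the α form of slow fibres that also has many non-muscle transcripts, 76.8 CPM (74.2 to 79.5). Tpm1 was 78.3% of tropomyosin UMIs, Tpm2 21.4% and Tpm3 0.313%. Tpm3 thus lay at the level of the slow troponins, and UMIs of it were seen in 55.6% of spots against 32.9% for Tnnt1, 29.4% for Tnnc1 and 19.2% for Tnni1.

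**Figure D1:**
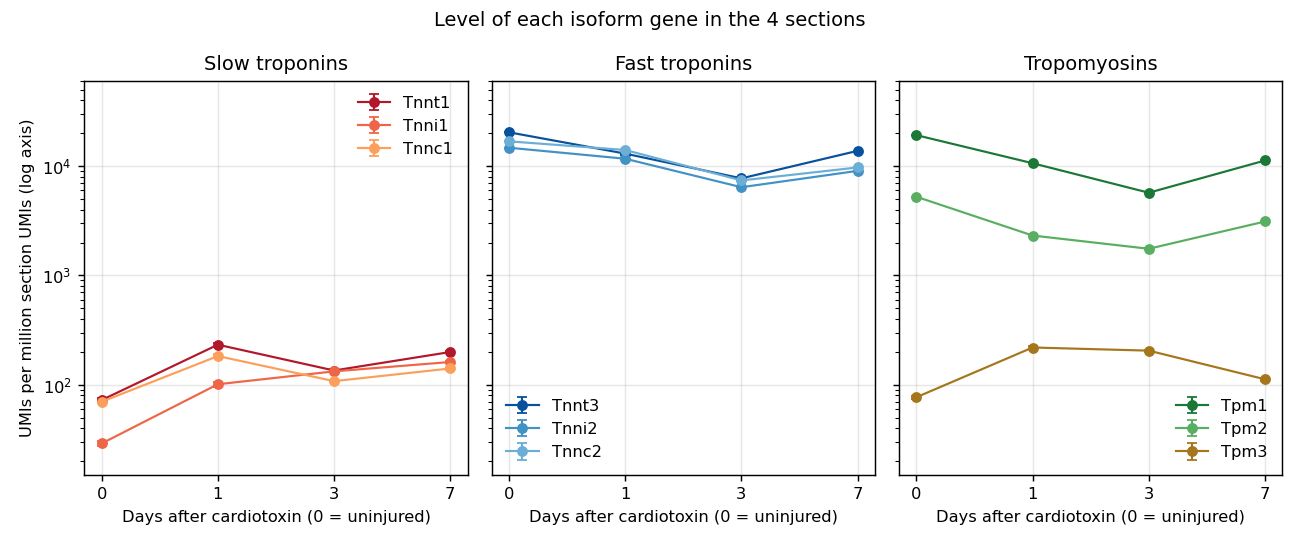
Level of the 9 genes in the 4 sections, as CPM on a log axis, against days after cardiotoxin; points are single sections and bars are 95% Poisson intervals, mostly smaller than the points. The 3 slow troponins and Tpm3 were lowest at day 0, and the 3 fast troponins, Tpm1 and Tpm2 were lowest at 3 dpi.

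On the CPM scale the slow troponins and Tpm3 lay above day 0 after injury, and the other members below it. Tnnt1 was 232 CPM at 1 dpi, 135 at 3 dpi and 199 at 7 dpi, so all 3 injured sections lay above the 72.4 CPM of day 0. Tnnc1 was 183, 108 and 141 CPM on those days, the same order of sections. Tnni1 differed from them: it was 101 CPM at 1 dpi, 132.5 at 3 dpi and 161 at 7 dpi, highest in the last section. Tpm3 was 219, 205 and 112 CPM, highest at 1 and 3 dpi and nearest to its day 0 level at 7 dpi.

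The fast genes were lower in every injured section on the CPM scale. Tnnt3 was 13007 CPM at 1 dpi, 7722 at 3 dpi and 13791 at 7 dpi. Tnni2 was 11679, 6408 and 9046 CPM, and Tnnc2 was 14038, 7392 and 9719 CPM. Tpm1 followed with 10625, 5707 and 11252 CPM, and Tpm2 with 2316, 1752 and 3114 CPM. All 5 were lowest at 3 dpi, where they stood at 0.297-fold (Tpm1) to 0.439-fold (Tnnc2) of day 0.

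Set against a 2-fold limit on CPM, 4 members were higher and 1 lower at 1 dpi, where 17.4% of 15091 genes were higher and 11.4% lower. The 4 were Tnni1 (3.48-fold), Tnnt1 (3.21-fold), Tpm3 (2.85-fold) and Tnnc1 (2.62-fold), and the 1 was Tpm2 (0.442-fold). At 3 dpi 2 members were higher, Tnni1 (4.57-fold) and Tpm3 (2.67-fold), and 5 were lower, the 3 fast troponins, Tpm1 and Tpm2, against 33.3% of all genes higher and 8.26% lower. At 7 dpi 3 members were higher, Tnni1 (5.56-fold), Tnnt1 (2.75-fold) and Tnnc1 (2.02-fold), and 0 lower, against 32.7% higher and 2.13% lower. The median log2 ratio of the members was -0.26, -1.19 and -0.56 at 1, 3 and 7 dpi, and that of all genes 0.15, 0.58 and 0.65. These counts have no test behind them, since each day is 1 section.

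The scale mattered for the counts. Trimmed-mean (TMM) factors lowered every ratio by 0.19, 0.55 and 0.61 log2 units at 1, 3 and 7 dpi. With TMM the split was 4 higher and 2 lower at 1 dpi, where 13.8% of all genes were higher and 14.8% lower. It was 1 and 5 at 3 dpi, against 19.8% and 16.5%, and 1 and 5 at 7 dpi, against 15.7% and 6.65%. Tpm3 at 7 dpi had a log2 ratio of 0.55 on CPM and of -0.06 with TMM, so its direction there depended on the scale. Tnni1 was past 2-fold higher on all 3 days under both scales. The log2 ratio of Tnnc1 was 0.63 on CPM and 0.07 with TMM at 3 dpi, and 1.01 and 0.40 at 7 dpi. That of Tnnt1 was 0.90 and 0.35 at 3 dpi and 1.46 and 0.85 at 7 dpi, so with TMM neither gene was past 2-fold at 7 dpi.

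The slow to fast ratio does not depend on scaling, since both genes are counted in the same section. At day 0 there were 3.55 Tnnt1 UMIs per 1000 Tnnt3 UMIs (3.43 to 3.68), 1.97 Tnni1 per 1000 Tnni2 (1.86 to 2.08) and 4.15 Tnnc1 per 1000 Tnnc2 (4.0 to 4.30). These ratios rest on 3176, 1273 and 3065 slow UMIs. At 1 dpi the ratios were 17.9 for troponin T (17.3 to 18.4), 8.65 for troponin I (8.24 to 9.07) and 13.0 for troponin C (12.6 to 13.5). All 3 lay well outside the day 0 intervals.

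At 3 dpi the ratios were 17.5 for troponin T (17.1 to 17.9), 20.7 for troponin I (20.2 to 21.2) and 14.6 for troponin C (14.2 to 14.96). At 7 dpi they were 14.4 (14.1 to 14.8), 17.8 (17.4 to 18.3) and 14.5 (14.1 to 14.9). The 3 pairs thus took different courses. In whole-section sums troponin T did not differ beyond counting error between 3 and 1 dpi, with a log2 difference of -0.03 (-0.09 to 0.02). That depended on the spots: the log2 change against day 0 at 1 and 3 dpi was 2.28 and 1.77 with each spot thinned to 2000 UMIs, 2.05 and 0.44 in spots with at least 5% of UMIs from the contractile genes, and 0.69 and 3.25 without the 10% of spots with the highest Myh7 share. In whole-section sums troponin I was 2.39-fold higher at 3 than at 1 dpi, a log2 difference of 1.26 (1.18 to 1.33). Its order also depended on the spots. The log2 change against day 0 at 1 and 3 dpi was 2.02 and 2.71 thinned, and 0.46 and 4.58 without the Myh7 spots. In the spots with at least 5% contractile UMIs it was 1.91 and 1.14, so there 3 dpi lay below 1 dpi. Troponin C was 1.12-fold higher at 3 than at 1 dpi (log2 0.16, 0.10 to 0.23) and, again in whole-section sums, did not differ beyond counting error between 7 and 3 dpi (log2 -0.01, -0.06 to 0.04). Thinned, its log2 change against day 0 was 1.27 at 3 dpi and 1.83 at 7 dpi, and in the spots with at least 5% contractile UMIs it was 0.01 and 1.40, so 7 dpi lay above 3 dpi under both.

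Against day 0, the troponin I ratio had the greatest change of the 3 at 3 dpi, 10.5-fold (log2 3.39, 3.31 to 3.48), and at 7 dpi, 9.06-fold (log2 3.18, 3.09 to 3.27). Troponin T was 5.03-fold, 4.92-fold and 4.07-fold of day 0 at 1, 3 and 7 dpi, and troponin C was 3.14-fold, 3.52-fold and 3.49-fold. Even so the slow genes were a small part of troponin UMIs in every section: 1.32% at 1 dpi, 1.71% at 3 dpi and 1.52% at 7 dpi. Within the slow set, Tnni1 was 16.9% and 19.6% of UMIs at days 0 and 1 and 35.3% and 32.2% at days 3 and 7. Within the fast set the make-up was steadier, with Tnnt3 at 33.6% to 42.4%.

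**Figure D2:**
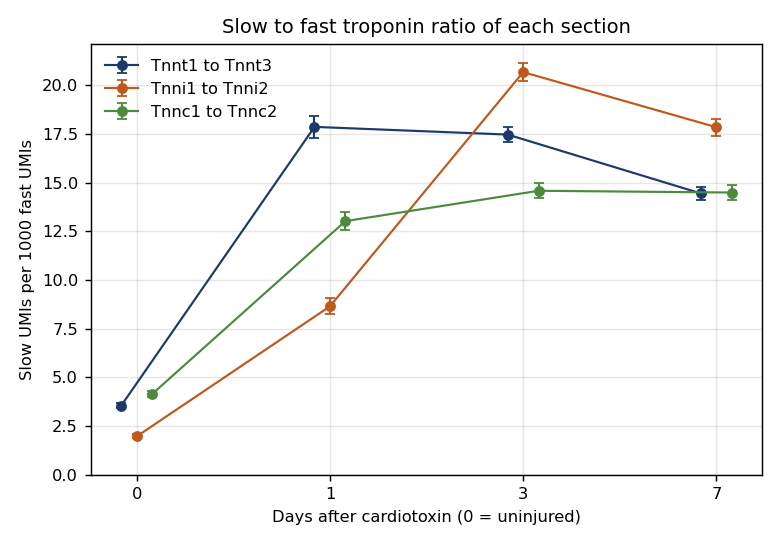
Slow UMIs per 1000 fast UMIs for the 3 troponin pairs in each section, with 95% intervals; 1 section a day, so bars cover counting error only. In these whole-section ratios troponin T was 17.9 at 1 dpi and 17.5 at 3 dpi, while troponin I went from 8.65 at 1 dpi to 20.7 at 3 dpi.

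In single spots the slow genes were a small part of troponin UMIs. The median spot had a slow share of 0% at days 0 and 1, 0.386% at 3 dpi and 0.478% at 7 dpi, among spots with at least 10 troponin UMIs. Spots where slow UMIs outnumbered fast ones were rare: 0 of 2107 at day 0 (up to 0.175% by the exact binomial interval), 4 of 2524 at 1 dpi, 3 of 3026 at 3 dpi and 0 of 3029 at 7 dpi. With every spot thinned to 2000 UMIs, which left out 17, 513, 9 and 84 shallower spots at days 0, 1, 3 and 7, Tnnt1 was seen in 7.69%, 12.3%, 14.1% and 19.8% of spots. Without thinning it was seen in 32.9%, 16.2%, 47.5% and 52.7%, so the low share at 1 dpi was not kept at equal depth. RNA can spread between neighbouring spots, and the part of such spread in low shares was not tested.

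The 3 pairs were high in the same spots. When spots were ranked by the slow share of the other pairs, the highest 10% at day 0 had 30.3 Tnnt1 per 1000 Tnnt3 (29.1 to 31.6), against 1.06 in the rest (0.994 to 1.14). The corresponding values were 15.9 and 0.592 for troponin I and 34.1 and 1.11 for troponin C. The gap was 26.8-fold to 30.6-fold at day 0, 76.9-fold to 85.7-fold at 1 dpi, 17.7-fold to 21.4-fold at 3 dpi and 10.7-fold to 14.4-fold at 7 dpi. Over spots thinned to 2000 UMIs, Spearman's rho between 2 slow genes was 0.282 to 0.331 at day 0 (2090 spots), 0.614 to 0.663 at 1 dpi (2154 spots), 0.268 to 0.271 at 3 dpi (3020 spots) and 0.197 to 0.243 at 7 dpi (2948 spots). Between 2 fast troponins it was 0.408 to 0.425 at day 0 and 0.895 to 0.907 at 3 dpi. Slow against fast pairs were below 0 on every day, from -0.200 to -0.055. Spots of 1 section share a library, so these values are descriptions.

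The genes most like each member across the 2107 day 0 spots were found by Pearson's r of log-scaled counts among 6318 genes. For Tnnt1, Tnni1, Tnnc1 and Tpm3 they were the same and in the same order: Myh7, the slow myosin heavy chain, then Myl2 and Myl3, slow myosin light chains. The r with Myh7 was 0.772 for Tnnc1, 0.747 for Tnnt1, 0.721 for Tnni1 and 0.523 for Tpm3. For Tnnt3 they were Ckm (0.863), muscle creatine kinase, Mylpf (0.832), the fast regulatory light chain, and Acta1 (0.801), skeletal actin. Mylpf also led for Tnnc2 (0.820) and Tnni2 (0.794), and Myh4, the fastest myosin heavy chain, for Tpm1 (0.846). Tpm2 stood between the sets: its nearest genes were Mybpc1 (0.532), Myl3 (0.515) and Fhl1 (0.514). Depth and muscle content of a spot enter all of these values.

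Slow fibre genes did not keep to one course with the slow troponins after injury. At 1 dpi Myh7, Myl2 and Myl3 were all higher than at day 0, with log2 ratios of 1.34, 1.33 and 1.45 beside 1.39 to 1.80 for the slow troponins. At 3 dpi their log2 ratios were -0.13, -0.22 and -0.63, while those of Tnni1, Tnnt1 and Tnnc1 were 2.19, 0.90 and 0.63. At 7 dpi Myh7 was 113 CPM, Myl2 77.5 and Myl3 148, against 89.3, 102 and 180 at day 0. Of all 9 slow fibre genes, 4 were past 2-fold higher and 2 past 2-fold lower at 1 dpi, 2 higher and 0 lower at 3 dpi, and 2 higher and 1 lower at 7 dpi. Set against the shares of all genes on CPM given above, 2 of 9 higher was below the share of all genes at 3 and 7 dpi (33.3% and 32.7%). Csrp3, a Z-disc protein, had the largest ratio of the list at 1 and 3 dpi, where it was 1200 and 633 CPM against 46.3 at day 0, and it was 51.8 CPM at 7 dpi. The whole list summed to 2768 and 1565 CPM at 1 and 3 dpi, so Csrp3 was a large part of it there. At day 0 Mybpc1 gave 507 of its 1099 CPM. Spots ranked by this list are therefore not shown to be the same tissue on each day.

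As a sum, regenerating muscle genes were above day 0 only at 3 and 7 dpi. The 7 genes of that list (embryonic and neonatal myosins Myh3 and Myh8, Myl4, the myogenic factors Myog and Myod1, and the fusion proteins Mymk and Mymx) summed to 126 CPM at day 0 and 104 CPM at 1 dpi, and then to 868 at 3 dpi and 789 at 7 dpi. At 1 dpi 0 of 7 were past 2-fold higher and 3 past 2-fold lower, where 17.4% and 11.4% of all genes were. The 3 were Mymk, Mymx and Myh8, with 17, 7 and 17 UMIs at 1 dpi. At 3 dpi 7 of 7 were past 2-fold higher, and at 7 dpi 5 of 7, where 33.3% and 32.7% of all genes were. The fast fibre list had 8, 9 and 4 of its 11 genes past 2-fold lower at 1, 3 and 7 dpi and 0 higher on any of these days. Of all genes 11.4%, 8.26% and 2.13% were lower.

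To see where slow troponin UMIs lay, each section was sorted into 4 classes of spot by genes that are no members. A spot could be in the highest 10% for Myh7, Myl2 and Myl3 (slow myosin spots), in the highest 10% for the regenerating list (regenerating spots), in both, or in neither. This sorting was added after the data had been seen. Myh7, Myl2 and Myl3 were also the non-member genes most like each slow troponin over the same day 0 spots. The share of slow troponin UMIs in slow myosin spots at day 0 is therefore no independent result. Each class takes the highest 10% of its section whatever the level, and at days 0 and 1 Myh3 was at 1.73 and 1.19 CPM in the whole section, so regenerating spots of those days are not shown to be regenerating muscle and are not the same tissue as those of 3 and 7 dpi. At day 0 slow myosin spots held 65.0% of slow troponin UMIs with 10.7% of all UMIs, and regenerating spots held 3.26% with 7.92%. At 1 dpi slow myosin spots held 88.1%, spots in both 4.31%, spots in neither 6.68% and regenerating spots 0.935%.

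At 3 dpi the picture was split. Slow myosin spots held 24.6% of slow troponin UMIs, regenerating spots 28.4%, the 62 spots in both 17.5% and the rest 29.4%. Of all UMIs, slow myosin spots held 9.06%, regenerating spots 12.9% and the spots in both 3.07%. At 7 dpi regenerating spots held the largest part of slow troponin UMIs, 42.9%, with 17.97% of all UMIs. Slow myosin spots held 28.8% with 7.3% of all UMIs, so the larger part did not mean the higher level. The genes differed here: at 7 dpi regenerating spots held 59.7% of Tnni1, 37.4% of Tnnt1 and 31.5% of Tnnc1 UMIs, and slow myosin spots held 13.6%, 30.3% and 44.3%. As CPM at 7 dpi, Tnni1 was 536 in regenerating spots and 301 in slow myosin spots. Tnnt1 and Tnnc1 had the opposite order, at 415 and 247 CPM in regenerating spots and 826 and 856 CPM in slow myosin spots. Spots of neither class held 77.1% to 83.1% of fast troponin UMIs over the 4 days, beside 74.5% to 80.3% of all UMIs. Regenerating spots at 3 dpi departed further, with 5.26% of fast troponin UMIs and 12.9% of all UMIs.

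**Figure D3:**
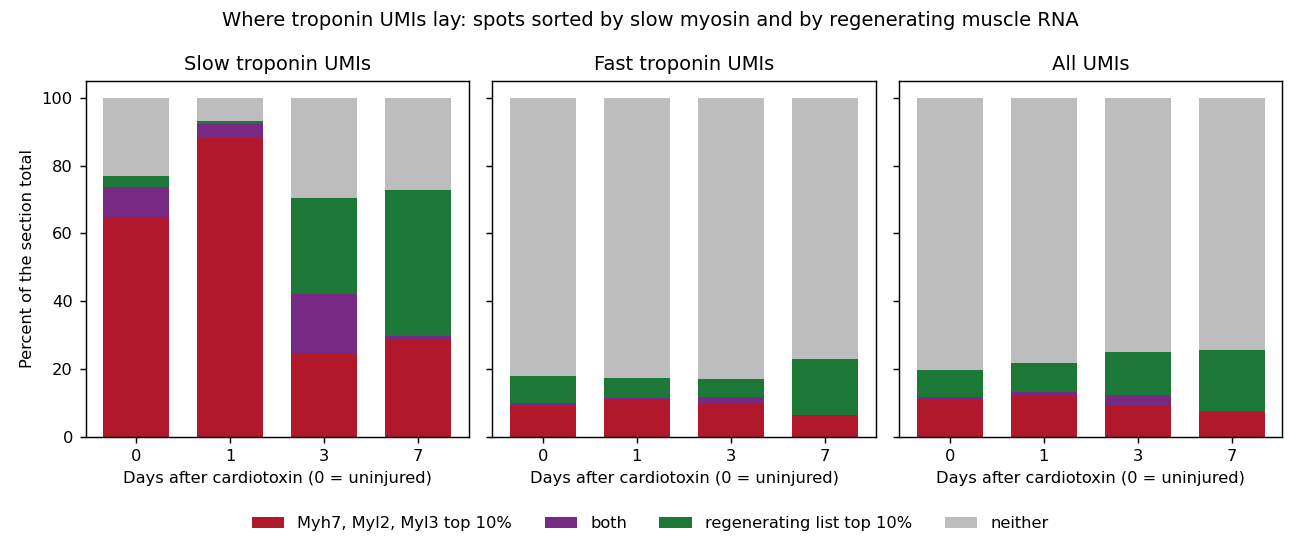
Percent of slow troponin, fast troponin and all UMIs of each section that fell in spots of the 4 classes, stacked to 100; slow and fast are sums over 3 genes each. Slow troponin UMIs lay mostly in slow myosin spots at days 0 and 1. At 3 and 7 dpi they were divided among slow myosin spots, regenerating spots and spots of neither class, which held 29.4% and 27.2%. Spots in both classes held 17.5% at 3 dpi.

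Ratios within the classes need not follow the shares: at 7 dpi regenerating spots held more of the Tnnt1 UMIs than slow myosin spots, but had the lower ratio. In slow myosin spots there were 25.9 Tnnt1 per 1000 Tnnt3 at day 0 (24.8 to 27.1), 142 at 1 dpi (137 to 148), 52.4 at 3 dpi (50.1 to 54.7) and 64.6 at 7 dpi (62.0 to 67.2). In regenerating spots the same ratio was 1.49 at day 0 (1.22 to 1.80), 2.96 at 1 dpi (2.10 to 4.07), 88.8 at 3 dpi (84.6 to 93.0) and 34.8 at 7 dpi (33.5 to 36.0). Both genes of the ratio differed between those spots at day 0 and 3 dpi. Tnnt3 was 20819 and 2950 CPM there, and Tnnt1 31.1 and 262 CPM. In spots of neither class the ratio was 1.03, 1.40, 6.10 and 5.82. For the Tnnt1 to Tnnt3 ratio, slow myosin spots lay above regenerating spots at days 0, 1 and 7 and below them at 3 dpi.

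Troponin I had the highest ratio of the 3 pairs in regenerating spots at 3 and 7 dpi. Its ratio there was 0.814 at day 0 (0.587 to 1.10, from 42 Tnni1 UMIs), 1.64 at 1 dpi (0.988 to 2.57, from 19 UMIs), 126 at 3 dpi (121 to 132) and 64.8 at 7 dpi (62.8 to 66.9). Tnni2 in regenerating spots was 14837 CPM at day 0 and 2733 CPM at 3 dpi, and Tnni1 12.1 and 345 CPM. In slow myosin spots the troponin I ratio was 14.1, 67.6, 37.2 and 39.5. At 7 dpi the order of the 2 classes was thus opposite for troponin I (64.8 against 39.5) and troponin C (25.7 against 110), with intervals that did not overlap in either pair. Spots of neither class at 1 dpi differed from day 0 by a log2 change of 0.19 (-0.14 to 0.51) for troponin I and 0.02 (-0.20 to 0.24) for troponin C, and by 0.44 (0.23 to 0.65) for troponin T.

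**Figure D4:**
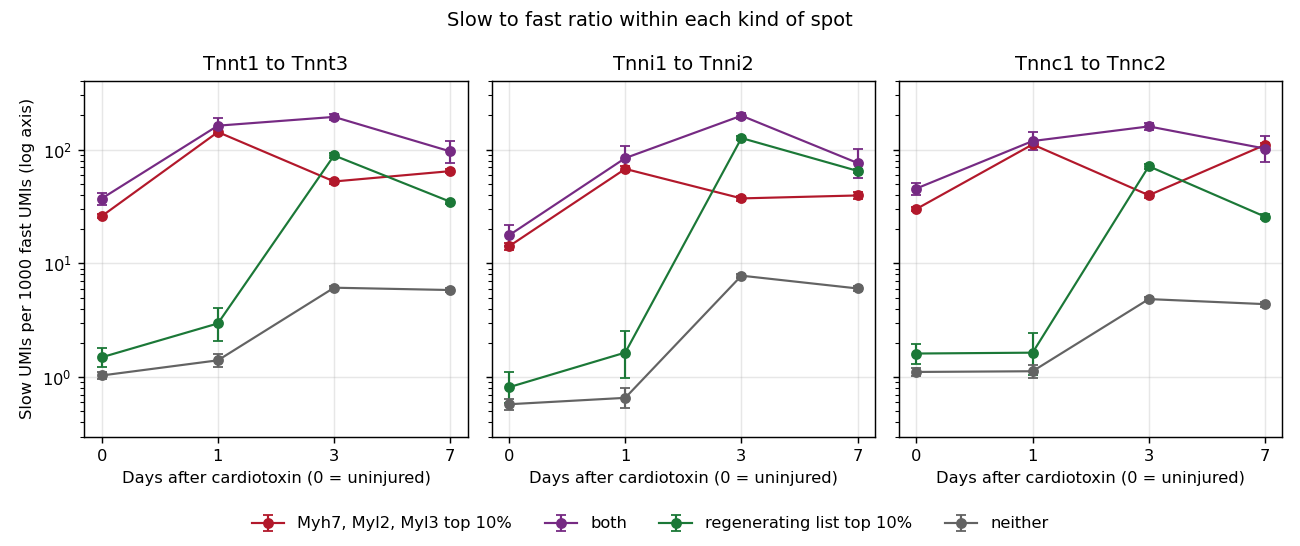
Slow UMIs per 1000 fast UMIs (log axis) within the 4 classes of spot on each day, 1 panel for each troponin pair, with 95% intervals for counting error. Regenerating spots lay near the spots of neither class at day 0 and at 71.3 to 126 slow UMIs per 1000 fast at 3 dpi.

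Myh7 alone was also used to set spots aside. Without the 10% of spots with the highest Myh7 share, the log2 change of the ratios at 1 dpi was 0.69 (0.50 to 0.87) for troponin T in place of 2.33, 0.46 (0.17 to 0.75) for troponin I in place of 2.13, and 0.13 (-0.08 to 0.33) for troponin C in place of 1.65. At 3 dpi leaving those spots out made the changes larger, at 3.25, 4.58 and 2.85. The ratios of 3 dpi were themselves lower without those spots, and those of day 0 were lower by a larger factor. For Tnnt1 to Tnnt3 the ratio was 0.0104 in place of 0.0175 at 3 dpi. At day 0 it was 0.00109 in place of 0.00355. How much slow muscle the cut at 1 dpi took in cannot be told apart from the day.

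The ratio also differed with the share of a spot's UMIs from the 7 contractile genes above. Spots were cut into 4 equal bins by that share, which Acta1 and Ckm dominate. At day 0 the bins held 8.37% to 12.3% such UMIs, so all were rich in muscle RNA. Ckm and Acta1 were also among the non-member genes most like Tnnt3 at day 0. The share is thus tied to the fast gene of the ratio and does not measure muscle content alone. At day 0 the lowest bin had 11.3 Tnnt1 per 1000 Tnnt3 and the highest 0.364, and at 3 dpi 83.6 and 0.890. At 1 dpi the order was not kept: the bins from lowest to highest had 8.52, 37.1, 21.6 and 8.49. Where only spots with at least 5% of such UMIs were kept (1562 of 3029 at 3 dpi), the log2 change at 3 dpi was 0.44 (0.35 to 0.53) for troponin T, 1.14 (1.03 to 1.26) for troponin I and 0.01 (-0.08 to 0.11) for troponin C. The same cut left changes of 1.69, 2.70 and 1.40 at 7 dpi.

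Other cell types were looked at with lists that hold no member. In the 10% of spots richest in macrophage RNA, the fast troponins were at 0.405-fold to 0.458-fold of the rest at 1 dpi and at 0.125-fold to 0.128-fold at 3 dpi. The slow troponins were also lower there on those days, at 0.225-fold to 0.316-fold and 0.348-fold to 0.460-fold. At 7 dpi the slow genes were higher in such spots, with Tnni1 at 3.39-fold, Tnnc1 at 2.36-fold and Tnnt1 at 1.57-fold of the rest, and the fast ones at 0.621-fold to 0.670-fold.

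Tpm3 was the member above the rest in macrophage-rich spots at 1 and 3 dpi. It was 1.38-fold, 1.90-fold, 1.75-fold and 1.27-fold of the rest in macrophage-rich spots at days 0, 1, 3 and 7, while at 7 dpi all 3 slow troponins had higher values than it, and at day 0 they were at 0.896-fold to 1.12-fold. In fibroblast-rich spots it was 1.87-fold at 7 dpi, where Tpm1 was 0.293-fold and Tpm2 0.316-fold. In the 303 spots richest in cartilage RNA at 7 dpi it was 171 CPM against 106 in the rest, while the other 8 members were at 0.319-fold to 0.413-fold. In spots ranked by the slow fibre list Tpm3 was 5.73-fold of the rest at day 0 and 6.61-fold at 1 dpi. It was 1.42-fold at 3 dpi and 4.07-fold at 7 dpi, though these spots need not be the same tissue on each day. In the spots richest in neutrophil RNA at 1 dpi it was 1.39-fold of the rest, where the slow troponins were at 0.309-fold to 0.397-fold and the fast ones at 0.572-fold to 0.626-fold. In endothelial-rich spots Tpm3 was 1.70-fold, 1.51-fold, 0.983-fold and 1.56-fold of the rest at days 0, 1, 3 and 7. Which transcripts of Tpm3 these UMIs came from was not tested.

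Tpm1 and Tpm2 also lay apart. In spots ranked by the slow fibre list Tpm1 was 0.645-fold of the rest at day 0 and Tpm2 1.38-fold (1.37 to 1.40). At 3 dpi, when Csrp3 was a large part of that list, the values were 0.837-fold and 2.01-fold. In spots rich in smooth muscle RNA, which uses tropomyosins of the same genes, Tpm1 was 0.821-fold and Tpm2 0.948-fold at day 0. Spearman's rho of Tpm2 with Tnnt3 over thinned spots was -0.128 at day 0, 0.066 at 1 dpi, 0.408 at 3 dpi and 0.275 at 7 dpi, and that of Tpm1 with Tnnt3 0.511, 0.837, 0.904 and 0.722. The value of 0.066 was -0.044 with spots thinned to 4000 UMIs, so its sign depended on the thinning.

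**Figure D5:**
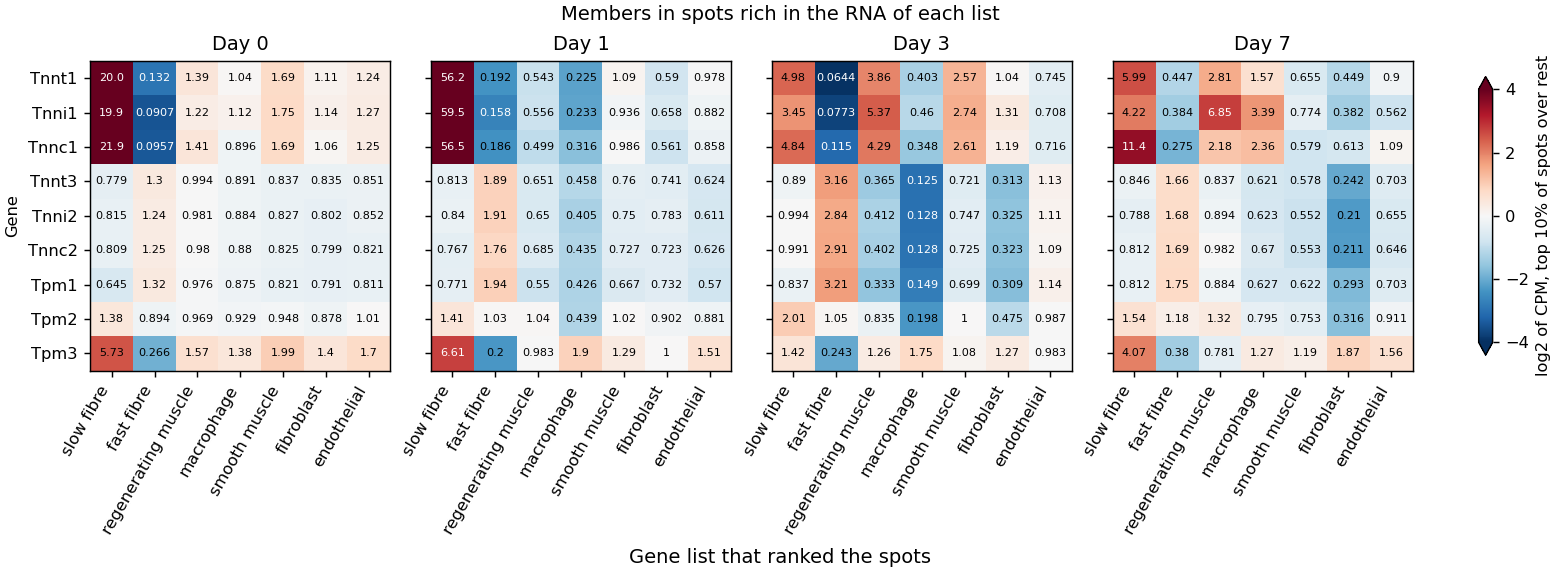
CPM of each member in the highest 10% of spots for a gene list over its CPM in the other spots, for 7 lists (columns) and 4 days (panels); colour is the log2 of the fold printed in the cell. Slow troponins stood out in spots ranked by the slow fibre list at days 0 and 1 (19.9-fold to 59.5-fold) and in regenerating spots at 3 dpi (3.86-fold to 5.37-fold), and Tpm3 was the member above 1 in macrophage spots at days 1 and 3. Spots ranked by a list need not be the same tissue on each day.

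The other thin filament genes give the setting. Of 10 (Acta1, Actc1, Neb, Tmod1, Tmod4, Lmod2, Lmod3, Tnnt2, Tnni3 and Tpm4), 0 were past 2-fold higher and 3 lower at 1 dpi, 3 higher and 5 lower at 3 dpi, and 3 higher and 1 lower at 7 dpi. The 3 of 10 higher at 3 and 7 dpi was near the share of all genes (33.3% and 32.7%), while 5 of 10 lower at 3 dpi stood against 8.26%. Of all genes 17.4% were higher and 11.4% lower at 1 dpi, and 2.13% were lower at 7 dpi. Tnni3 was among the 3 lower at 1 dpi, with 27 UMIs at day 0 and 5 at 1 dpi. Its log2 ratio of -1.05 (-2.78 to 0.35) was within counting error of no change. Tnnt2, the cardiac and embryonic troponin T, was 3.40 CPM at day 0 and 2.92 at 1 dpi, and 64.7 and 64.2 CPM at 3 and 7 dpi, so it was low in the first 2 sections and higher in the last 2, as the sum of the regenerating list was. Tnni3, the cardiac troponin I, was between 0.298 and 1.91 CPM in all sections. Actc1, cardiac actin, went from 6066 CPM at day 0 to 246, 143 and 926 CPM. Tpm4, a mainly non-muscle tropomyosin, was 88.0, 82.0, 178 and 128 CPM, highest at 3 dpi.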

How the data were processed

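Spatial libraries of 4 fresh frozen sections were used. The deposited matrices hold raw UMI counts per gene and spot, which the authors made with Space Ranger (1.2.0 per the file headers, another version in the study's methods) on mm10, keeping spots over tissue. Their read filters are not given in the sources used here. Counts were summed over spots and given as CPM with exact Poisson intervals. Slow to fast ratios had exact conditional binomial intervals, and changes between days had intervals combined from both. No test between days was run, because each day is 1 section. Genes with at least 10 UMIs over both sections entered the 2-fold counts, with a gene under 3 UMIs set to 3. Spots were ranked by 10 gene lists, or sorted into 4 classes. For rho each spot was thinned to 2000 UMIs in 20 draws. UMI intervals cover counting error only. The members and lists were chosen with earlier results of these data known. The genes named are the 9 members, the list genes and the 3 genes most like each member at day 0. These 3 were taken among non-member, non-mitochondrial genes with at least 500 UMIs. Alternatives were spot filters, thinning, edgeR 4.0.16 TMM factors, DESeq2 1.42.0 size factors and a reduced total. Scripts ran on Python 3.11.15 and R 4.3.3 and were tested on simulated data. Sequences came from RefSeq (GRCm38.p6).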

Additional observations from a re-analysis of the deposited data

How the results depend on the processing

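No paired analysis was possible because each day has 1 section. Keeping spots with at least 1000 UMIs left all 9 ratio changes within counting error. Keeping spots with at least 5% of UMIs from the contractile genes gave log2 changes at 1, 3 and 7 dpi of 2.05, 0.44 and 1.69 for troponin T, 1.91, 1.14 and 2.70 for troponin I, and 1.47, 0.015 and 1.40 for troponin C. Leaving out the 10% of spots with the highest Myh7 share gave 0.69, 3.25 and 3.28 for troponin T, 0.46, 4.58 and 4.75 for troponin I, and 0.13, 2.85 and 2.85 for troponin C. Thinning each spot to 2000 UMIs, which weights spots equally, gave 2.28, 1.77 and 1.81 for troponin T at 1, 3 and 7 dpi, 2.02, 2.71 and 2.71 for troponin I, and 1.54, 1.27 and 1.83 for troponin C. No ratio change against day 0 turned its sign under these 4 settings. For troponin C the interval included no change at 1 dpi without the Myh7 spots (-0.08 to 0.33). It also did at 3 dpi in the spots with at least 5% contractile UMIs (-0.08 to 0.11). Differences between injured days could turn: in those spots troponin I was lower at 3 than at 1 dpi. TMM and DESeq2 size factors gave the same counts of members past 2-fold: 2 lower at 1 dpi, 1 higher at 3 dpi, and 1 higher and 5 lower at 7 dpi. With TMM 14.8% of all genes were lower at 1 dpi, 19.8% higher at 3 dpi, and 15.7% higher and 6.65% lower at 7 dpi. A total without mitochondrial, haemoglobin and muscle list genes gave 2 lower at 1 dpi, 1 higher at 3 dpi, and 2 higher and 4 lower at 7 dpi. The share of all genes was not taken with DESeq2 factors or with this total. Member counts on those scales therefore cannot be set against it. The Tpm3 log2 ratio at 7 dpi was -0.062 with TMM and -0.092 with DESeq2 factors, against 0.55 on CPM. The cause of these moves was not tested. With no filter on low counts, 31.3% of genes at 1 dpi were past 2-fold higher, and with at least 50 UMIs 15.8%. The first share includes genes with 3 or fewer UMIs in both sections. The floor of 3 UMIs and the smaller total at 1 dpi place all of those past 2-fold higher. Thinning to 1000 or 4000 UMIs moved rho by at most 0.167 and changed its sign in 3 of 144 values. With the highest 20% of spots in place of 10%, the gap between spots ranked by the other pairs was 22.6-fold to 27.9-fold at day 0, 82.2-fold to 95.3-fold at 1 dpi, 16.8-fold to 18.5-fold at 3 dpi and 9.09-fold to 11.6-fold at 7 dpi. The shallow day 1 section limits the classes with few slow UMIs.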
